A study of Mus musculus with 6 samples.

Results

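The NRF2 and glutathione genes described here are 10 genes of the deposited expression table, taken by symbol: Nfe2l2, Keap1, Gclc, Gclm, Gsr, Txn1, Txnrd1, Prdx1, Srxn1 and Nqo1. They are 10 of 18071 genes with values, and all 10 were among the 10899 that passed the filter on low values and were tested. They were measured in RNA of mouse immature dendritic cells (imDCs), the antigen-sampling state of these cells before maturation, under fluid shear stress (FSS) and in static culture. The FSS group held 3 libraries of cells loaded at 10 dyn/cm2 for 3 h in a cone-plate device, and the static group held 3 libraries of cells kept without that load. All cells came from the femurs and tibias of male C57BL/6 mice of 7 weeks, had been cultured 7 days in IL-4 (10 ng/ml) plus GM-CSF (20 ng/ml), and had been enriched with a CD11c kit. No genotype or allele other than the strain is named. Both groups number their replicates 1 to 3, and the labels do not say whether those came from separate mice or cultures, so that p-values measure the spread between these samples only.

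NRF2, the product of Nfe2l2, is a transcription factor that KEAP1 holds in the cytoplasm and delivers to a ubiquitin ligase under resting conditions. Oxidants and electrophiles modify cysteines of KEAP1, NRF2 then escapes destruction, enters the nucleus and pairs with small MAF proteins on antioxidant response elements. Its classical targets make and recycle glutathione, run the thioredoxin cycle and reduce quinones. Much of this control acts on the NRF2 protein, which RNA does not measure.

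Nfe2l2 was higher under FSS than in static culture, while the other 9 genes were lower, in each of the 3 pairs of like-numbered libraries. Nfe2l2 averaged 115 ± 21.3 FPKM under FSS and 77.1 ± 7.80 FPKM in static cells (mean ± SD, n = 3 each, as in all such values below), a ratio of means of 1.49. The deposited values name no unit and were taken as FPKM, which are fragment numbers relative to transcript length and library size. Levels are set beside each other between genes on that inference. The 9 others had ratios of means between 0.613 (Prdx1 and Srxn1) and 0.866 (Txn1). In limma without pairing (unpaired below), 0 of the 10 passed a Benjamini-Hochberg adjusted p of 0.05 over all 10899 genes, where 1.72% of all genes did (0.853% higher and 0.862% lower); 6 of the 10 had an unadjusted p under 0.05, against 18.1% of all genes. With the replicate number as a block (blocked below), Nfe2l2 rose and 7 of the 10 fell (Keap1, Gclc, Gsr, Txnrd1, Prdx1, Srxn1 and Nqo1), against 7.73% of all genes higher and 25.1% lower (32.9% together). Gclm and Txn1 did not pass with the block. With the block and libraries scaled by their median ratio, Nfe2l2 rose and 3 fell (Gclc, Prdx1 and Srxn1), against 19.2% of all genes higher and 16.8% lower (36.0% together). With that scaling and no block 0 of the 10 passed, against 1.45% and 0.651% (2.1% together). Without both libraries numbered 3 and unpaired, Nfe2l2 rose and Prdx1 fell, against 3.48% and 3.34% (6.83% together); blocked, Nfe2l2 rose and 7 fell, Gclm among them and Keap1 not, against 14.3% and 24.5% (38.8% together).

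**Figure D1:**
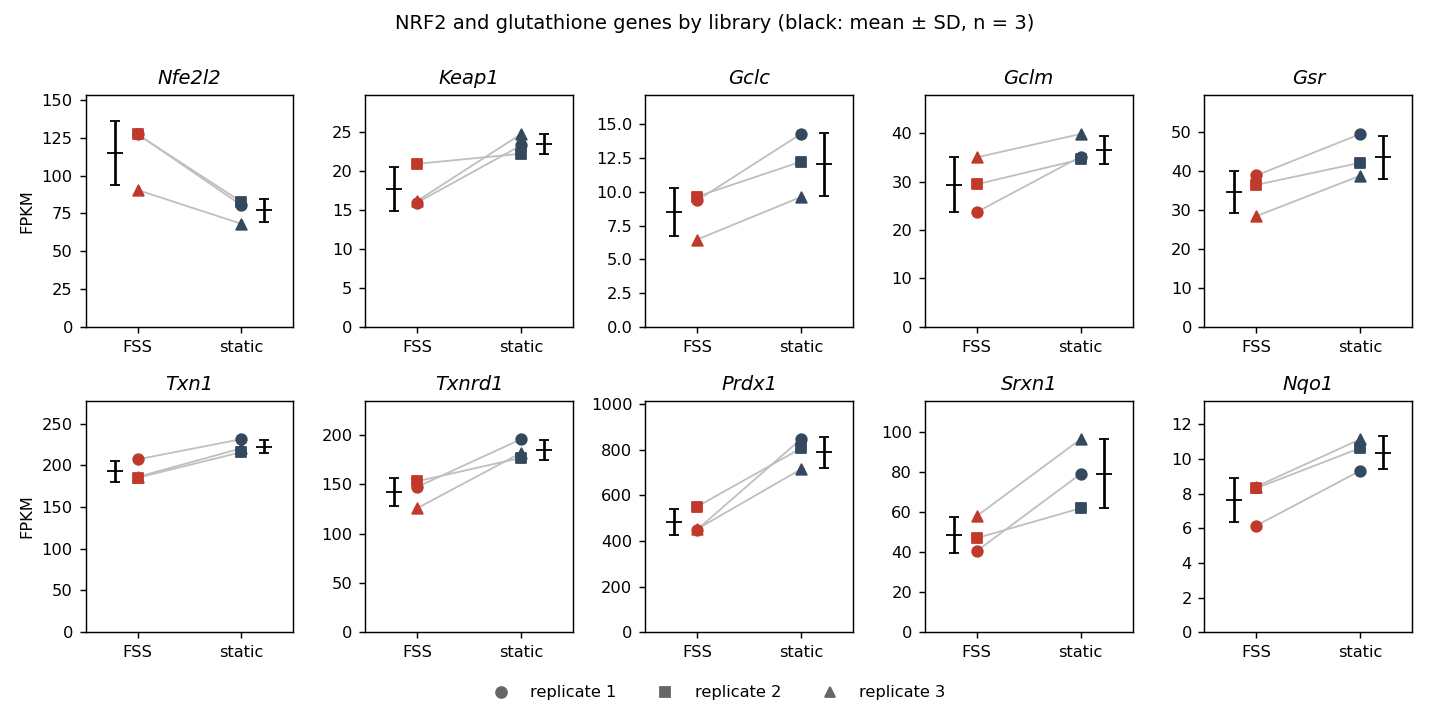
FPKM of the 10 genes in each library, FSS on the left and static on the right, with a grey line joining libraries of the same replicate number and mean ± SD in black (n = 3 per group). Every line for Nfe2l2 is higher at its FSS end, at 90.5 to 128 FPKM, and every line of the other 9 genes is lower at its FSS end.

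The median of all genes tested stood 0.12 lower under FSS on the log2(FPKM + 1) scale. After median-ratio scaling that median was 0.02 higher. Relative to the median gene, Nfe2l2 was at 0.68 log2, Prdx1 at -0.59, Srxn1 -0.57, Gclc -0.34, Nqo1 -0.29, Keap1 -0.28, Txnrd1 -0.26, Gsr -0.21, Gclm -0.20 and Txn1 -0.09. No gene of the 10 turned its direction under scaling. Of all genes tested, 47.3% were lower in all 3 pairs, against 17.1% that were higher in all 3. The median log2 difference of the 10 genes was -0.39, against -0.12 over all genes tested.

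The libraries held 10390 to 10959 genes at 1 FPKM or more. The values carry no read counts, so that sequencing depth is unknown and no counting interval can be given. Both libraries numbered 3 stood apart from the other 4 on the first principal component (48.5% of the variance), and FSS and static separated on the second (36.6%). Of 8 dendritic cell markers 6 reached 1 FPKM in every library, with Cd74 at 4178 to 5319 FPKM under FSS and 4509 to 5283 FPKM in static cells. Itgax averaged 448 ± 52.6 FPKM under FSS and 537 ± 54.3 FPKM in static cells. Zbtb46 averaged 60.5 ± 22.5 FPKM under FSS and 82.5 ± 19.9 FPKM in static cells. Both overlapped between groups but were lower under FSS in every pair, as were 47.3% of all genes. H2-Ab1, H2-Aa and Ciita had higher means under FSS, at ratios of 1.06, 1.05 and 1.075. Flt3 and Cd209a stayed below 1 FPKM in all 6 libraries. Macrophage markers were present too, with all 7 at 1 FPKM or more and a summed level of 383 to 490 FPKM under FSS and 323 to 409 FPKM in static cells, mostly from Cd68. Among them Mertk averaged 43.0 ± 18.6 FPKM under FSS and 18.0 ± 4.93 FPKM in static cells, and Fcgr1 3.56 ± 0.53 FPKM under FSS and 6.11 ± 1.09 FPKM in static cells, both without overlap between groups. Groups without overlap were seen for 25.5% of all genes in either direction. The Mertk groups nearly met, at 21.97 FPKM in FSS replicate 3 and 21.35 FPKM in static replicate 2. The remaining macrophage markers overlapped, with ratios of means from 1.005 (C1qa) to 1.28 (Adgre1). The 7 neutrophil markers summed to 224 to 361 FPKM under FSS and 265 to 450 FPKM in static cells, nearly all from S100a8 (134 ± 30.5 FPKM under FSS and 212 ± 50.7 FPKM in static cells, overlapping) and S100a9 (157 ± 40.7 FPKM under FSS and 149 ± 44.5 FPKM in static cells). Mast cell or basophil markers summed to 4.50 to 14.7 FPKM under FSS and 3.52 to 12.2 FPKM in static cells. Sums of B cell, T cell, NK cell and erythroid markers were under 4 FPKM in every library. The part of other cell types in the results below was not tested, and in bulk RNA fewer cells of a type and less RNA per cell cannot be told apart.

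Promoter windows of the 10 genes were searched for the core of the antioxidant response element, TGACNNNGC, because this is the sequence through which NRF2 and small MAF proteins act on the targets in this set. RefSeq windows (GRCm38.p6), from 250 bases before to 50 bases after an annotated start, existed for 8 of the 10 genes and came to 10 windows, 3 of them for Txnrd1. Gclc and Gsr had none in the table. On either strand the core was found in 5 of these windows, of Nfe2l2, Gclm, Txnrd1, Srxn1 and Prdx1, while 12.4% of all 32851 windows held it. Of 107 windows of the wider pathway genes described below, 19 held it (17.8%). The windows with a match follow, 5′ to 3′ on the strand of the gene and as the 250 bases before the start, with the matching bases in capitals; for Srxn1, whose match lies after the start, only the match and 10 bases on each side are given.
Prdx1, chr4:116685349-116685598, plus strand: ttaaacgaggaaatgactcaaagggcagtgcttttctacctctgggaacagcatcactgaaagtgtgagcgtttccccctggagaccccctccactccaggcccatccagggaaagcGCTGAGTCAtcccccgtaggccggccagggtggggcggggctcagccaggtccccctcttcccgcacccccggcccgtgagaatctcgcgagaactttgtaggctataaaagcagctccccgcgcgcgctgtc
Gclm, chr3:122245307-122245556, plus strand: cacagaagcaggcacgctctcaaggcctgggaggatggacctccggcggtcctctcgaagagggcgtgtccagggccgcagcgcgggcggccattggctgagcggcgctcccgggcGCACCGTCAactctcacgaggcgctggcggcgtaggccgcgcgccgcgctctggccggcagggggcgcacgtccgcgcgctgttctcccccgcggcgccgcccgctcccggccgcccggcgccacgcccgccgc
Txnrd1, chr10:82858956-82859205, plus strand: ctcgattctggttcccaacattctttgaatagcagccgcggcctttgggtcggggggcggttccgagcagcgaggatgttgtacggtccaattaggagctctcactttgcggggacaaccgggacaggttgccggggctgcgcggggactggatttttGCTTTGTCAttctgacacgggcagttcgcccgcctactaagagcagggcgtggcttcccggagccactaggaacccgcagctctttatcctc
Nfe2l2, chr2:75704664-75704913, minus strand: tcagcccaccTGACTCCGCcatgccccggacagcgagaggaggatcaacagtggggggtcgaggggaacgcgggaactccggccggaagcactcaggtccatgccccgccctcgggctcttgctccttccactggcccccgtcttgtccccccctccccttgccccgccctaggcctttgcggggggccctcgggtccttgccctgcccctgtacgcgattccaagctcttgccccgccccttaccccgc
Srxn1, chr2:152105542-152105570, plus strand: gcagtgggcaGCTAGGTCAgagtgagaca
Counted from the start, the match begins at base -133 in Prdx1, -134 in Gclm, -92 in Txnrd1, -240 in Nfe2l2 and 29 in Srxn1. In Nfe2l2 it reads in the direction of the gene, and in the other 4 it lies on the opposite strand, so that the printed capitals are the reverse complement GCNNNGTCA. The Prdx1 match, TGACTCAGC on its own strand, also contains TGACTCA, the recognition sequence of AP-1, which 5.20% of all windows held on either strand. The same letters occur again in lower case near the beginning of the printed Prdx1 window, outside the match. On either strand, 2 of the 10 windows held TGACTCA, and so did 7 of the 107 wider pathway windows (6.54%). The start listed for Nfe2l2 was not found in the GENCODE M21 transcripts of the gene. A match describes letters and not a bound site, and where none was found these letters are only not in this window.

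Nfe2l2 and Keap1, the factor and its inhibitor, differed in opposite directions, and Nfe2l2 passed when blocked or without the libraries numbered 3, Keap1 when blocked with all libraries and no scaling. Nfe2l2 (gene ID 18024) had 128, 127 and 90.5 FPKM under FSS, against 80.4, 82.6 and 68.1 FPKM in static cells. The lowest FSS library was above the highest static one, and in both groups the library numbered 3 was the lowest. Groups without overlap were seen with FSS higher for 5.1% of all genes, and in either direction for 25.5%. The log2 difference of Nfe2l2 was 0.56 ± 0.20 (SE; limma adjusted p = 0.184), and blocked 0.56 ± 0.09 (limma adjusted p = 0.00399). It was 0.66, 0.62 and 0.40 in pairs 1, 2 and 3. Of all genes tested, 4.13% had a difference at least as high.

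Keap1 (gene ID 50868), the adaptor that presents NRF2 to the CUL3 ubiquitin ligase, had 15.95, 20.9 and 16.2 FPKM under FSS, against 23.3, 22.2 and 24.7 FPKM in static cells. The groups did not overlap, which held with FSS lower for 20.4% of all genes. FSS replicate 2 was close to its static partner, at a pair difference of -0.08 log2, whereas pairs 1 and 3 gave -0.52 and -0.58. The log2 difference was -0.40 ± 0.17 (SE; limma adjusted p = 0.272 unpaired). Blocked it had an adjusted p of 0.0403, which became 0.0900 after scaling and 0.0698 when libraries numbered 3 were left out.

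Within a library, the ratio of Nfe2l2 to Keap1 RNA does not depend on how libraries are scaled. It was 8.0, 6.08 and 5.6 under FSS, against 3.45, 3.72 and 2.75 in static cells, in FPKM per FPKM. Each FSS library was above every static one. This follows from Nfe2l2 being higher and Keap1 lower without overlap, and is not a further result. The mean log2 ratio was 2.70 ± 0.27 under FSS and 1.72 ± 0.23 in static cells (SD, n = 3 each), a difference of 0.98. The two-sided exact permutation p was 0.1, the smallest that 3 against 3 libraries can give (0.4 after adjustment over 4 ratios). The non-overlap of both genes fixed the unadjusted value in advance.

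**Figure D2:**
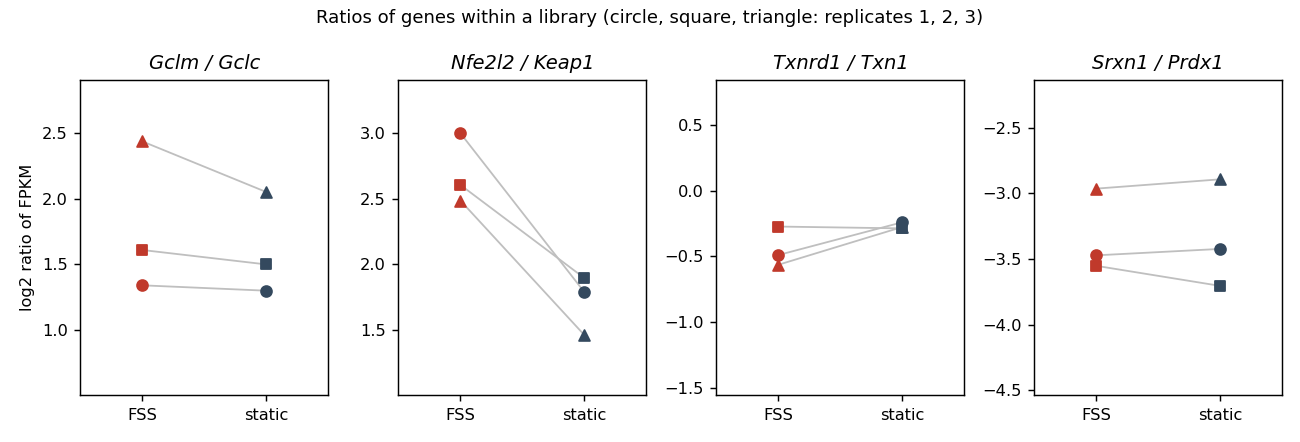
Log2 ratios of FPKM of 4 gene pairs within each library, FSS on the left and static on the right, with lines joining like-numbered libraries and the same span on every axis. The groups separate for Nfe2l2 over Keap1, at 2.49 to 3.00 under FSS against 1.46 to 1.90 in static cells, and overlap for the other 3 ratios. The separation follows from the non-overlap of Nfe2l2 and of Keap1.

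Glutathione is made in a pathway whose first and limiting step is run by glutamate-cysteine ligase, an enzyme of a catalytic subunit, encoded by Gclc, and a modifier subunit, encoded by Gclm. Gclc (gene ID 14629) had 9.35, 9.64 and 6.46 FPKM under FSS, against 14.3, 12.2 and 9.61 FPKM in static cells. FSS replicate 2 barely exceeded static replicate 3, so that the groups overlapped, but each pair was lower under FSS, at -0.56, -0.31 and -0.51 log2. The log2 difference was -0.46 ± 0.21 (SE; limma adjusted p = 0.308). Blocked, the adjusted p was 0.0118, and after scaling as well the difference was -0.32 (limma adjusted p = 0.0233).

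Gclm (gene ID 14630) had 23.7, 29.4 and 35.0 FPKM under FSS, against 35.1, 34.6 and 39.8 FPKM in static cells. The groups overlapped through FSS replicate 3, and the pair differences were -0.55, -0.23 and -0.18 log2. Its log2 difference of -0.32 ± 0.19 (SE) had a limma adjusted p of 0.433 unpaired and 0.0526 blocked. Without both libraries numbered 3, the block gave -0.39 and an adjusted p of 0.0181.

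The 2 subunits differed in the libraries numbered 3. These were low in Gclc and high in Gclm in both groups, by -0.49 and 0.39 log2 against the mean of numbers 1 and 2 under FSS, and by -0.42 and 0.19 in static cells. The Gclm to Gclc ratio was 2.53, 3.05 and 5.41 under FSS, against 2.46, 2.83 and 4.14 in static cells. Its mean log2 difference between FSS and static cells was 0.18 (two-sided exact permutation p = 0.6) and turned to -0.14 without FSS replicate 3, so no direction is given for it.

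Gsr (gene ID 14782), glutathione reductase, returns oxidised glutathione to its reduced form at the expense of NADPH. It had 38.8, 36.4 and 28.4 FPKM under FSS, against 49.4, 42.1 and 38.7 FPKM in static cells. FSS replicate 1 reached the level of static replicate 3, and within pairs Gsr was lower, at -0.34, -0.20 and -0.43 log2. Gsr differed by -0.33 ± 0.19 log2 (SE; limma adjusted p = 0.417 unpaired, 0.0316 blocked, 0.149 blocked and scaled).

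Both thioredoxin genes were abundant, and Txn1 differed least of the 10. Txn1 (gene ID 22166), which encodes cytosolic thioredoxin, a small protein that reduces disulphides in other proteins, had 207, 185 and 186 FPKM under FSS, against 231, 216 and 220 FPKM in static cells. The groups did not overlap, although the highest FSS and the lowest static value were close. Its log2 difference was -0.21 ± 0.15 (SE; 95% interval -0.55 to 0.14) and passed neither without nor with the block (limma adjusted p = 0.531 and 0.0608). After scaling the difference was -0.05.

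Txnrd1 (gene ID 50493), the selenoprotein that recharges thioredoxin with electrons from NADPH, had 147, 153 and 126 FPKM under FSS, against 196, 177 and 182 FPKM in static cells. The groups did not overlap. Txnrd1 differed by -0.38 ± 0.16 log2 (SE; limma adjusted p = 0.261 unpaired, 0.0151 blocked, 0.0971 blocked and scaled). The Txnrd1 to Txn1 ratio was 0.712, 0.827 and 0.676 under FSS, against 0.846, 0.819 and 0.826 in static cells, and the groups overlapped through FSS replicate 2 (log2 difference -0.18; two-sided exact permutation p = 0.3).

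Prdx1 and Srxn1, which fell when blocked, had the lowest ratios of the set. Prdx1 (gene ID 18477) encodes a peroxiredoxin, an enzyme that removes hydrogen peroxide with electrons from thioredoxin, and it was the most abundant of the 10 RNAs. It had 449, 551 and 452 FPKM under FSS, against 847, 806 and 715 FPKM in static cells. The highest FSS library lay well below the lowest static one. The log2 difference was -0.71 ± 0.16 (SE; limma adjusted p = 0.0800), and 4.22% of all genes had one at least as low. Blocked, its adjusted p was 0.00153, and after scaling as well the difference was -0.55 (limma adjusted p = 0.00828). By rank among the genes tested, which scaling does not touch, Prdx1 stood at 120, 98 and 159 under FSS, against 42, 43 and 92 in static cells.

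Srxn1 (gene ID 76650) encodes sulfiredoxin, which restores peroxiredoxins whose active cysteine has been overoxidised. It had 40.5, 46.9 and 57.9 FPKM under FSS, against 78.9, 61.8 and 96.2 FPKM in static cells. The groups did not overlap. Pairs differed more in size than for Prdx1, at -0.95, -0.39 and -0.72 log2. The log2 difference was -0.69 ± 0.22 (SE; limma adjusted p = 0.160 unpaired, 0.00509 blocked). Blocked and scaled it was -0.53 (limma adjusted p = 0.00729). The ratio of Srxn1 to Prdx1 was 0.0900, 0.0852 and 0.128 under FSS, against 0.0932, 0.0766 and 0.135 in static cells. Its mean log2 difference was 0.01 (two-sided exact permutation p = 1.0), with pair differences of -0.05, 0.15 and -0.07.

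Nqo1 (gene ID 18104), a quinone reductase and a standard readout of NRF2 activity, was the scarcest of the 10 on average in both groups. It had 6.16, 8.32 and 8.41 FPKM under FSS, against 9.33, 10.6 and 11.2 FPKM in static cells. The groups did not overlap, and all pairs were lower, at -0.53, -0.32 and -0.37 log2. Nqo1 differed by -0.41 ± 0.17 log2 (SE; limma adjusted p = 0.274 unpaired, 0.0172 blocked, 0.0584 blocked and scaled).

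**Figure D3:**
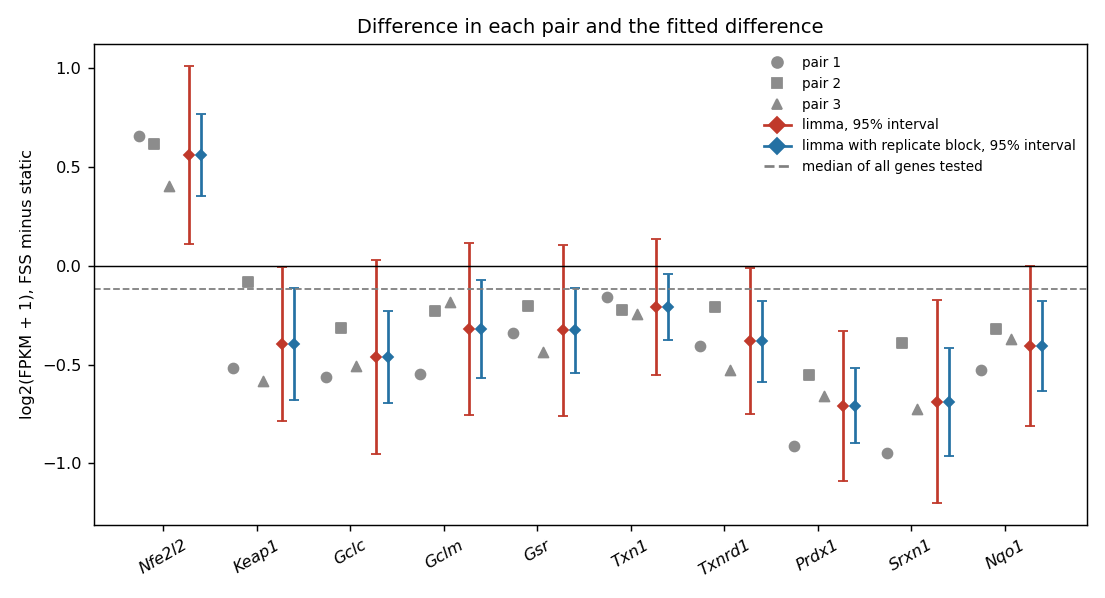
Differences in log2(FPKM + 1), FSS minus static, for the 10 genes in pairs 1 to 3 (grey) and as fitted by limma without (red) and with (blue) the replicate block, each with its 95% interval; the dashed line is the median of all genes tested, -0.12. Points of Nfe2l2 lie at 0.40 to 0.66 and those of the other genes between -0.95 and -0.08.

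With the values taken as FPKM, the order of the levels per unit length can be given by group means. It had Prdx1, Txn1 and Txnrd1 at the top and Keap1, Gclc and Nqo1 at the bottom in both groups. Nfe2l2 and Srxn1 changed places in it. In static cells they were neighbours whose ranges overlapped, at 68.1 to 82.6 FPKM for Nfe2l2 and 61.8 to 96.2 FPKM for Srxn1. Under FSS their ranges were apart, with Nfe2l2 at 90.5 to 128 FPKM and Srxn1 at 40.5 to 57.9 FPKM. There Nfe2l2 reached the lowest Txnrd1 library, at 126 FPKM. The neighbours Gsr and Gclm overlapped in both groups, and so did Gclc and Nqo1. By rank, Nfe2l2 stood at a median of 494 among the genes tested under FSS and 846 in static cells, and Srxn1 at 1502 under FSS and 864 in static cells.

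The genes whose profile over the 6 libraries lay nearest to that of Nfe2l2, by root-mean-square distance of centred log2(FPKM + 1) values, were Togaram1, 2010111I01Rik, Arl5b, Ppfibp2 and Samd8, at distances of 0.05 to 0.07, where the median of 5612 genes compared was 0.46. Nearest to Prdx1, the gene of the set with the smallest p, were Utp18, Pdcd1lg2, Fgfr1op2, Cyb5b and Plekha3, at 0.06 to 0.07 against a median of 0.39. Pdcd1lg2, which encodes the checkpoint ligand PD-L2, averaged 54.4 ± 8.05 FPKM under FSS and 92.5 ± 5.56 FPKM in static cells (SD, n = 3 each). The measure is a description over 6 libraries and shares their group difference and replicate-number effect.

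The wider pathway was followed in 7 lists with 95 genes, of which 83 were tested. Without the block Hmox1 rose, Glrx fell and 80 did not pass. Chac1 passed too, but had reached 1 FPKM in its FSS libraries alone and could be tested only because it was high there. These calls came to 2.41% higher, Chac1 included, and 1.2% lower, against 0.853% and 0.862% of all genes. With the block 9 were called higher (10.8%) and 12 lower (14.5%), against 7.73% and 25.1% of all genes. With the block and scaling 15 were called higher (18.1%) and 8 lower (9.64%), against 19.2% and 16.8% of all genes. These blocked counts include Chac1, and among the lower ones Txnrd3, which passed the filter through its static libraries. The shares called lower were below those of all genes in both blocked fits. The share called higher was above that of all genes with the block and near it once scaled. The median log2 difference over these genes was -0.10, against -0.12 over all genes tested. The untested were Cth, Cbs, Oplah, Ggt1, Ggt5, Gpx7, Gpx8, Gsta4, Gstt1, Gstk1, Akr1b8 and Sod3.

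Among 12 regulators around NRF2, none passed without the block (1 at an unadjusted limma p under 0.05, against 18.1% of all genes), and with it 1 rose and 2 fell (8.33% and 16.7%, against 7.73% and 25.1% of all genes). Sqstm1, whose product p62 sequesters KEAP1 for autophagy, averaged 393 ± 66.4 FPKM under FSS and 312 ± 92.8 FPKM in static cells and rose with the block (limma adjusted p = 0.0216). Dpp3, a peptidase that can compete with NRF2 for KEAP1, fell with the block, at 17.3 ± 3.57 FPKM under FSS and 27.9 ± 7.49 FPKM in static cells (limma adjusted p = 0.00336). Btrc, a subunit of a second ubiquitin ligase of NRF2, fell with the block as well (limma adjusted p = 0.0270) and did not pass once scaled (0.0784). Bach1, the repressor that competes for the same elements, was chosen with its values known and gave 20.0 ± 2.59 FPKM under FSS and 20.2 ± 1.14 FPKM in static cells.

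Of 7 tested genes of cystine import and glutathione synthesis or breakdown, Ggct rose and Gss fell with the block, and Chac1 was higher under FSS. Blocked calls came to 28.6% higher, Chac1 included, and 14.3% lower, against 7.73% and 25.1% of all genes. Blocked and scaled, they came to 42.9% higher, Chac1 again included, and 0% lower, against 19.2% and 16.8% of all genes. Gss did not pass once scaled as well (limma adjusted p = 0.0643). Chac1 cleaves glutathione inside the cell, Ggct releases 5-oxoproline from gamma-glutamyl amino acids, and Gss, glutathione synthetase, completes glutathione synthesis. Chac1 had 6.15, 3.71 and 5.36 FPKM under FSS, against 0.08, 0.26 and 0.22 FPKM in static cells (log2 difference 2.34 ± 0.19, SE; limma adjusted p = 0.00653). The groups were far apart, and the p is no independent support, since the filter admitted Chac1 through its FSS libraries. Its limma adjusted p was 0.0513 without static replicate 1 and 0.0841 without the filter, and it was not tested when an FSS library was left out. Ggct averaged 6.65 ± 2.53 FPKM under FSS and 4.01 ± 0.30 FPKM in static cells (limma adjusted p = 0.275 unpaired, 0.0242 blocked). Slc3a2, the heavy chain of the cystine transporter, gave 171 ± 22.5 FPKM under FSS and 138 ± 6.85 FPKM in static cells and passed neither unpaired nor blocked (limma adjusted p = 0.410 and 0.0655); it rose when blocked and scaled (0.00640) and when blocked without the libraries numbered 3 (0.00389). Its light chain Slc7a11 is a target of NRF2 and ATF4 and was chosen with its values known; it averaged 123.2 ± 41.2 FPKM under FSS and 137 ± 41.5 FPKM in static cells, without passing (limma adjusted p = 0.855 unpaired, 0.167 blocked).

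Of 21 tested glutathione-using enzymes and exporters, Glrx alone passed without the block (4.76%, against 0.862% of all genes lower). Glrx, a glutaredoxin that removes glutathione from protein cysteines, had 47.6, 53.0 and 57.8 FPKM under FSS, against 109, 99.1 and 102 FPKM in static cells. The groups were well apart, and the log2 difference was -0.96 ± 0.16 (SE; limma adjusted p = 0.0380). Its limma adjusted p was 0.108 to 0.187 when FSS replicate 1 or 2 or any 1 static replicate was left out, 0.0201 without FSS replicate 3, 0.0791 after scaling and 0.0843 without the filter. With the block 3 of the 21 fell (14.3%, against 25.1% of all genes) and 1 rose (4.76%, against 7.73%). The 1 that rose was Mgst2, a microsomal glutathione transferase (15.8 ± 1.19 FPKM under FSS and 11.8 ± 1.43 FPKM in static cells; limma adjusted p = 0.0178). Gstz1, a transferase of tyrosine breakdown, fell with the block (limma adjusted p = 0.0412) and not once scaled (0.130).

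None of 13 other thioredoxin and peroxiredoxin genes passed without the block (3 at an unadjusted limma p under 0.05, against 18.1% of all genes). With the block 2 rose and 1 fell (15.4% and 7.69%, against 7.73% and 25.1% of all genes). Txnip, which binds and inhibits thioredoxin, averaged 108 ± 15.8 FPKM under FSS and 72.3 ± 21.8 FPKM in static cells (limma adjusted p = 0.234 unpaired, 0.00790 blocked). Sesn2, a stress-induced sestrin, averaged 12.8 ± 1.22 FPKM under FSS and 9.12 ± 1.86 FPKM in static cells (limma adjusted p = 0.247 unpaired, 0.0467 blocked). Txnrd3, the 1 that fell, was low, at 0.75 ± 0.27 FPKM under FSS and 2.02 ± 0.84 FPKM in static cells (limma adjusted p = 0.00320 blocked). This p is no independent support, since the filter admitted Txnrd3 through its static libraries.

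NADPH is the electron source of both Gsr and Txnrd1, and not all of the 8 genes listed for its supply make it directly. None of the 8 passed without the block (1 at an unadjusted limma p under 0.05, against 18.1% of all genes). With it, and also with the block and scaling, the 2 dehydrogenases of the oxidative pentose phosphate pathway, G6pdx and Pgd, fell, which is 25.0% of the list, against 25.1% of all genes lower with the block and 16.8% with scaling as well. G6pdx had 35.5, 50.1 and 74.7 FPKM under FSS, against 67.2, 78.8 and 100 FPKM in static cells (limma adjusted p = 0.284 unpaired, 0.00472 blocked). The groups overlapped, and the library numbered 3 was the highest in each. Pgd averaged 160 ± 40.4 FPKM under FSS and 239 ± 40.2 FPKM in static cells (limma adjusted p = 0.227 unpaired, 0.00369 blocked). Tkt, a transketolase of the non-oxidative branch, averaged 162 ± 38.1 FPKM under FSS and 188 ± 31.4 FPKM in static cells, at 0.0623 blocked (limma adjusted p).

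Among 13 other detoxification and iron targets, Hmox1, haem oxygenase, rose without the block (7.69%, against 0.853% of all genes higher). With the block Fth1 rose too while Blvra and Cbr3 fell (15.4% in each direction, against 7.73% of all genes higher and 25.1% lower). Hmox1 had 978, 787 and 954 FPKM under FSS, against 334, 241.5 and 444 FPKM in static cells, well apart (limma adjusted p = 0.0383). Its limma adjusted p was 0.121 to 0.187 without FSS replicate 1 or 2 or static replicate 1 or 2, 0.0354 and 0.0460 without FSS and static replicate 3, and 0.113 without the filter. Fth1, the ferritin heavy chain that stores iron, averaged 5815 ± 735 FPKM under FSS and 3983 ± 270 FPKM in static cells (limma adjusted p = 0.123 unpaired, 0.000865 blocked). Cbr3, a carbonyl reductase, averaged 3.16 ± 0.44 FPKM under FSS and 5.17 ± 1.32 FPKM in static cells (limma adjusted p = 0.185 unpaired, 0.00702 blocked).

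Among 9 tested genes of superoxide production and disposal, none passed without the block (1 at an unadjusted limma p under 0.05, against 18.1% of all genes). With it Ncf1 rose and Ncf4 fell (11.1% each, against 7.73% of all genes higher and 25.1% lower), both of them cytosolic subunits of the phagocyte NADPH oxidase. Ncf1 averaged 105 ± 11.1 FPKM under FSS and 69.1 ± 12.9 FPKM in static cells (limma adjusted p = 0.157 unpaired, 0.00337 blocked). Ncf4 averaged 38.8 ± 3.85 FPKM under FSS and 46.9 ± 3.46 FPKM in static cells (limma adjusted p = 0.446 unpaired, 0.0483 blocked; 0.349 once scaled). Cat, catalase, averaged 39.4 ± 3.42 FPKM under FSS and 44.6 ± 2.88 FPKM in static cells, without passing (limma adjusted p = 0.637 unpaired, 0.164 blocked).

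**Figure D4:**
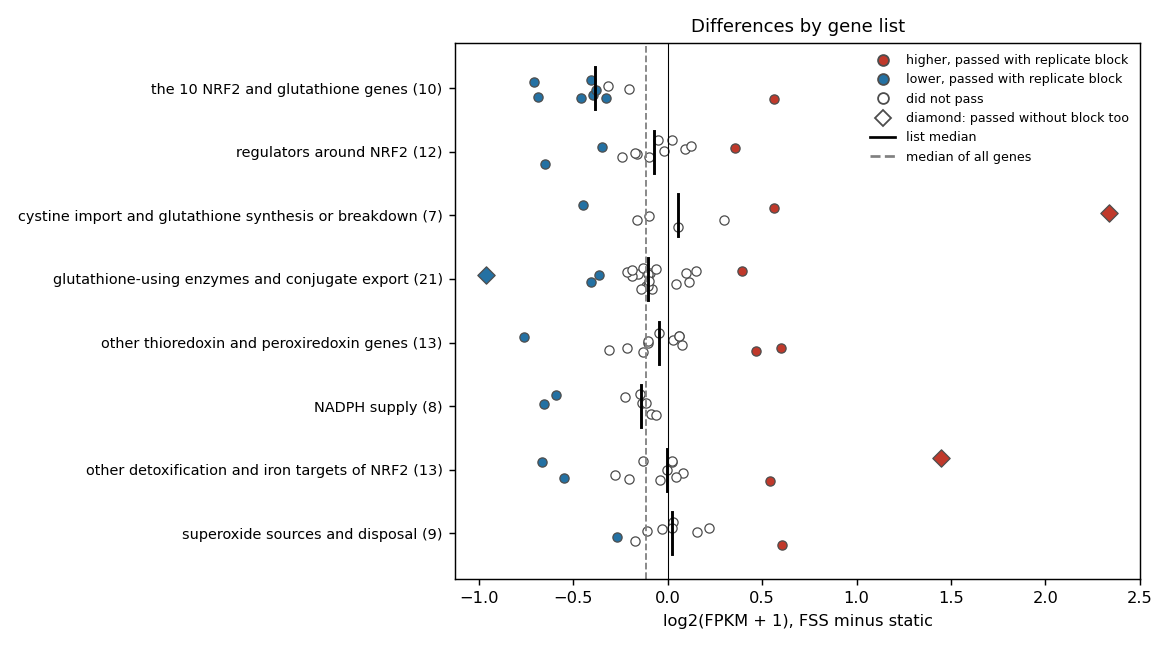
Differences in log2(FPKM + 1), FSS minus static, of the 10 genes and of the tested genes of 7 pathway lists, with list medians as black bars and the median of all genes as a dashed line. Filled points passed with the replicate block and diamonds also without it; the diamonds are Hmox1 (1.45), Glrx (-0.96) and Chac1 (2.34), the last of which passed the filter through its FSS libraries alone.

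Some of these loci overlap others in the RefSeq annotation, and it is not stated whether strand was used in counting. Gclm overlaps the lncRNA gene Gm46822 and the pseudogene Gm6061, Txnrd1 overlaps Gm38560 and the coding gene Eid3, Prdx1 overlaps the lncRNA gene AV051173 and has a pseudogene elsewhere (Prdx1-ps), and Gsr overlaps Gm24727 and Gm17803. Of the overlapping genes, values were found for Eid3, at 3.14 to 15.5 FPKM. Reads in the shared stretches cannot be assigned with certainty.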

How the data were processed

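RNA of 6 libraries, 3 FSS and 3 static by sample title, was analysed. The authors deposited 1 normalized value per gene and library, headed as expression with no unit. The deposited values were taken as FPKM calculated by the authors (no unit is named) because totals differ between libraries and value times longest GENCODE M21 transcript length summed to 1.14 to 1.28 times the total that FPKM implies, and with median length to 0.552 to 0.609 times, on either side of it; the unit is thus inferred, not stated. HISAT and Bowtie2 are named, per the submitters' processing notes. No source used here gives the quantifier, build, annotation or use of strand. Of 22899 genes, 4828 were blank throughout. No whole-read steps were recovered from low values.

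The 10899 genes that reached 1 FPKM in 3 or more libraries were fitted with limma 3.58.1 (R 4.3.3) on log2(FPKM + 1), FSS minus static, with mean-dependent moderated variances and Benjamini-Hochberg adjustment over all genes, threshold 0.05; this understates changes of low genes. Ratios of means are of FPKM. Deviations from group means of like-numbered libraries correlated across genes at 0.79, 0.66 and 0.87 (other combinations -0.78 to 0.28), so like-numbered libraries were treated as pairs, on the strength of these data and not of the labels. Promoter sequences are from RefSeq.

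The 10 genes and the pathway lists were chosen with earlier results of these data known. All 10 are named, with the 3 genes of smallest adjusted p per list, the 5 nearest profiles at 10 FPKM or more for Nfe2l2 and for the gene with the smallest p, and cell type markers. Alternatives were a pseudocount of 0.1, no filter, scaling by median ratio, the replicate block, and leaving out libraries.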

Additional observations from a re-analysis of the deposited data

How the results depend on the processing

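All 10 genes kept their direction under all 13 alternatives. None passed with a pseudocount of 0.1, without the filter, with median-ratio scaling alone or with any 1 library left out. With the replicate block 1 rose and 7 fell, with log2 differences of 0.56 (Nfe2l2), -0.40 (Keap1), -0.41 (Nqo1), -0.46 (Gclc), -0.38 (Txnrd1), -0.69 (Srxn1), -0.71 (Prdx1) and -0.33 (Gsr). With the block and scaling 1 rose and 3 fell, at 0.72 (Nfe2l2), -0.32 (Gclc), -0.53 (Srxn1) and -0.55 (Prdx1). Without both libraries numbered 3, 1 rose and 1 fell, at 0.64 (Nfe2l2) and -0.73 (Prdx1); with the block in addition 1 rose and 7 fell, at 0.64 (Nfe2l2), -0.42 (Nqo1), -0.39 (Gclm), -0.44 (Gclc), -0.31 (Txnrd1), -0.67 (Srxn1), -0.73 (Prdx1) and -0.27 (Gsr). The cause of these changes was not tested.

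Over all genes, 93 were higher and 94 lower. Counts were 842 and 2739 with the block, 2092 and 1829 with block and scaling, 371 and 356 without the libraries numbered 3, 1526 and 2608 with the block in addition, and 3 to 254 higher and 0 to 161 lower with 1 library left out (the most of both without FSS replicate 3, and 3 higher with 0 or 1 lower without FSS replicate 1 or 2 or static replicate 1). Scaling alone gave 158 higher and 71 lower, and a pseudocount of 0.1 gave 79 and 72. No filter gave 0 and 0 by limma (2692 at an unadjusted p under 0.05). The wider pathway counts, 2 higher (Chac1 among them) and 1 lower, were 9 and 12 with the block and 15 and 8 with block and scaling. They were 0 and 0 without a filter, and 2 and 0 with scaling alone, against 1.45% and 0.651% of all genes. Without the libraries numbered 3, Chac1 and Txnrd3 were not tested, so that fewer of the listed genes were counted. The pathway counts were then 3 and 2, against 3.48% and 3.34% of all genes. With the block in addition they were 12 and 13, against 14.3% and 24.5%. With 1 library left out they were 0 to 2 higher and 0 to 1 lower (0 and 0 without FSS replicate 1 or 2 or static replicate 1).

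With 1 library left out, the log2 difference of the Gclm to Gclc ratio ranged from -0.14 to 0.41 and that of Srxn1 to Prdx1 from -0.17 to 0.23. Gclm to Gclc turned to -0.14 without FSS replicate 3, and Srxn1 to Prdx1 to -0.17 without FSS replicate 3, -0.03 without static replicate 1 and -0.17 without static replicate 2. With 3 pairs the exact sign-flip test under the replicate block cannot go below 0.25. Depth is unknown, which limits most what can be said of genes below 1 FPKM.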
